A study of Mus musculus with 6 samples.

Results

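Collagens are the main structural proteins of the extracellular matrix, and 44 collagen genes are described here across sorted cells of mouse small-cell lung cancer. They were chosen by name, as genes whose symbol is Col followed by a type number, the letter a and a chain number, out of 22179 genes represented by array rows naming exactly 1 gene. For the 3 collagens with more than 1 such row (Col1a2, Col5a1 and Col6a1), the brightest row, by its mean of the 6 arrays, was used. The tumours arose in mice with conditional alleles of Rb, p53 and p130 after Cre carried by adenovirus was delivered into the trachea, and the animals also carried a GFP reporter allele of Hes1, a repressor induced by Notch signalling. GFP-negative and GFP-high cells were sorted from tumours pooled from 3 mice, taken 5 to 6 months after Cre, and 3 samples of each were hybridised to Affymetrix Mouse Gene 2.0 ST arrays. Both groups therefore come from mice of the same genotype, with the same reporter and Cre treatment, and differ by label only in GFP. Whether the sorted cells of each group had all deleted the conditional alleles was not tested here. The labels call the samples biological replicates and give the GFP-negative cells as negative or low. The promoter driving Cre, the gates of the sort and whether the replicates, or equally numbered samples, come from 1 pool or several are not given there, so p-values measure the spread between these samples. In sorted bulk samples, fewer cells expressing a gene and less RNA per cell cannot be told apart.

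A collagen molecule is a trimer of chains wound into a helix, which requires glycine at regular spacing along each chain and hydroxylation of its prolines. Fibrillar collagens form the tension-bearing fibres made mainly by fibroblasts, type IV collagen forms the sheet-like network of basement membranes beneath epithelia and around vessels, and transmembrane collagens are cell surface proteins with a collagenous ectodomain. The type IV chains assemble in fixed combinations: alpha 1 with alpha 2, which is found in nearly all basement membranes; alpha 3 with alpha 4 and alpha 5, known from kidney and lung; and alpha 5 with alpha 6. All values below are log2 expression on the authors' RMA scale, where a difference of 1 is a doubling; levels of different genes come from different probes and are not compared with each other.

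Hes1, the gene that GFP reports, read 10.49, 10.27 and 10.43 in GFP-high arrays against 6.93, 6.98 and 6.65 in GFP-negative ones. Arrays of a group correlated at 0.987 to 0.991 and arrays of different groups at 0.918 to 0.940 (across 22179 genes, which are not independent replicates). With 3 arrays per group the number of arrays limits the precision. The neuroendocrine marker Chga was high in GFP-negative cells (11.31 to 11.57) and lower in GFP-high cells (8.82 to 9.74), with GFP-high replicate 3 nearest to the GFP-negative arrays.

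Type IV chains rose together while fibrillar collagens did not pass the test. At an adjusted p under 0.05 in limma, 11 of 44 collagen genes (25%) had a higher level in GFP-high cells and 3 (6.82%) a lower one, while over all 22179 genes 13.0% were higher and 17.0% lower, 30% in all. The collagens' total of 31.8% is thus close to the background. Passing with a change of at least 1 on the log2 scale was seen for 13 of the 44 collagens and for 11.7% of all genes. The median log2 fold change was 0.12 over the 44 collagens and 0.01 over all genes. Among type IV chains 6 of 6 rose (median 1.5), among fibrillar collagens 0 of 11 passed (median 0.07; 3 were at an unadjusted p under 0.05), and among transmembrane collagens 1 of 4 rose (median 0.14). These class medians are descriptions, and the difference between classes was not tested. The values of the 2 groups did not overlap for 21 of the 44 genes (47.7%), against 44.6% of all genes.

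**Figure D1:**
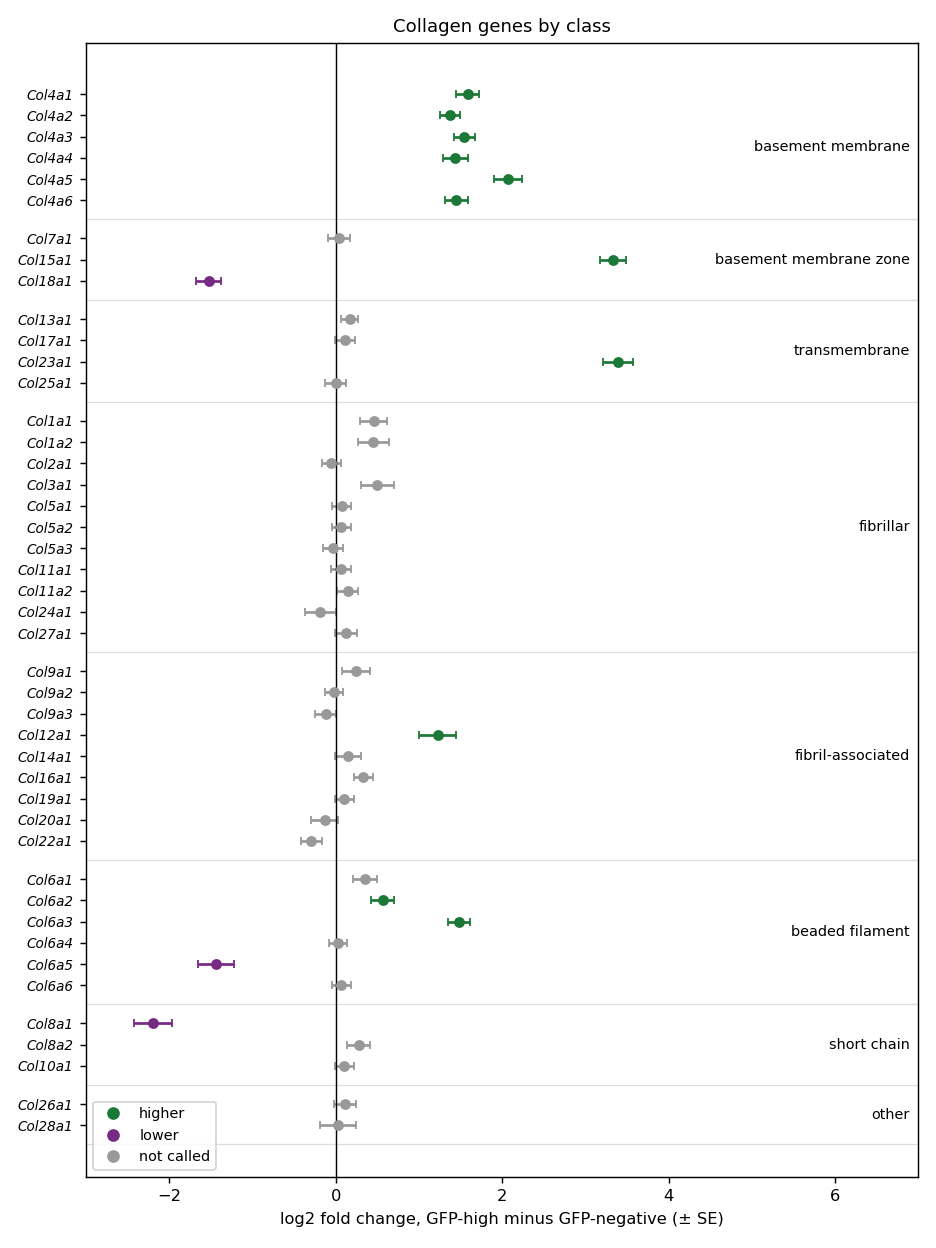
Log2 fold change of the 44 collagen genes, GFP-high minus GFP-negative, with its standard error (n = 3 arrays per group), grouped by class. Green points passed as higher and purple points as lower at an adjusted p under 0.05 (limma), and grey points did not pass; all 6 type IV chains lie between 1.37 and 2.07, while the 11 fibrillar collagens lie between -0.18 and 0.50.

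All type IV chains were higher in GFP-high cells, by 2.59-fold to 4.20-fold, and for each of them every GFP-high array lay above every GFP-negative array. The 6 genes sit as head-to-head neighbours in mammalian genomes, Col4a1 beside Col4a2, Col4a3 beside Col4a4 and Col4a5 beside Col4a6, on opposite strands. Because both members of each pair moved together in these arrays, the start regions of the autosomal pair Col4a1 and Col4a2 and of the X-linked pair Col4a5 and Col4a6 are printed, each 250 bases before to 50 bases after the start, from RefSeq on GRCm38.p6. The Col4a1 window is chr8:11312777-11313076 on the minus strand, the Col4a2 window chr8:11312555-11312854 on the plus strand, the Col4a5 window chrX:141475169-141475468 on the plus strand and the Col4a6 window chrX:141474027-141474326 on the minus strand. Sequences run 5′ to 3′ along each gene, and capitals mark the 78 bases that the Col4a1 and Col4a2 windows share, read on opposite strands.
Col4a1: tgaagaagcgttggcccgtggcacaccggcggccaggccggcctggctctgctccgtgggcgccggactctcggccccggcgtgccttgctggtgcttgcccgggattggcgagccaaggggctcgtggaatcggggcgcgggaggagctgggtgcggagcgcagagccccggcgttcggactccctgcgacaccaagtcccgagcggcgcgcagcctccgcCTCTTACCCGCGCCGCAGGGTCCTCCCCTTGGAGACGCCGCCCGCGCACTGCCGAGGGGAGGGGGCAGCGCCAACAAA
Col4a2: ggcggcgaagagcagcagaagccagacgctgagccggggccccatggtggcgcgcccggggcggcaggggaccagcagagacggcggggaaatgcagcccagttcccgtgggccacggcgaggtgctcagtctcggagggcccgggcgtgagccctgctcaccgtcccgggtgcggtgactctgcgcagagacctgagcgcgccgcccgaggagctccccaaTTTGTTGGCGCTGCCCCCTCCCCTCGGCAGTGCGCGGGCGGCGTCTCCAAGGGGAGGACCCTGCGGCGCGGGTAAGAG
Col4a5: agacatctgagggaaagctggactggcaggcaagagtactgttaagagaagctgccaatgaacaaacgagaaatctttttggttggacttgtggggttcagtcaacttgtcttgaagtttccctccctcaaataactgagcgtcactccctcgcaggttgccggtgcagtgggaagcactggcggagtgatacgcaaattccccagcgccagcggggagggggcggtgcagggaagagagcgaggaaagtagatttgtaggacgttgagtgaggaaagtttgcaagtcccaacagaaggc
Col4a6: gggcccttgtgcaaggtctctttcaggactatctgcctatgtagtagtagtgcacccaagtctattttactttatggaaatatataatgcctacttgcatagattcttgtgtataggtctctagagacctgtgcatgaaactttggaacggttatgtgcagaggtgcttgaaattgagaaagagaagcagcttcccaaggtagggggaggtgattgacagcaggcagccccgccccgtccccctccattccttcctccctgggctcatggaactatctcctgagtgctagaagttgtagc

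The annotated starts of Col4a1 (11312826, minus strand) and Col4a2 (11312805, plus strand) lie 21 bases apart. Each start lies downstream of the other, so the annotated transcripts overlap at their starts. The bases before the start of either gene lie on the transcribed side of the other. Motif matches there are therefore not in sequence upstream of both genes. The starts of Col4a5 and Col4a6 lie 1343 bases apart and point away from each other, and their windows do not overlap. The Col4a1 and Col4a2 windows are rich in G and C (74.0% and 73.7%), the Col4a5 and Col4a6 windows less so (52.7% and 48.3%), with a median of 52.7% over all 32851 promoter windows in the table. A window was found for 35 of the 44 collagens, 38 windows in all. The letters GGGCGG, a box bound by Sp1, were searched on both strands and occur in 4 of the 4 printed windows, in 60.5% of the 38 collagen windows and in 35.7% of all windows. CCAAT occurs in 3 of the 4 (all but Col4a6), in 34.2% of the collagen windows and in 37.4% of all windows. TATAAA occurs in 0 of the 4, in 13.2% of the collagen windows and in 13.6% of all windows. TGGGAA, the core letters bound by the Notch effector RBPJ, occur in the Col4a5 and Col4a6 windows only among these 4, in 31.6% of the collagen windows and in 25.6% of all windows. CACNAG, the N-box letters of Hes-type repressors, occur in 3 of the 4 (all but Col4a2), in 44.7% of the collagen windows and in 42.5% of all windows. The third type IV pair was not printed, because no window was found for Col4a3. Its neighbour Col4a4, which also rose, had none of these motifs, so the counts over the printed windows do not extend to all type IV chains. None of these motifs contains another, though the reverse of CCAAT can share letters with TGGGAA, the Col4a1 and Col4a2 windows are not independent, and a match is a description of the letters, not a binding site.

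Col4a1 and Col4a2 encode the chains of the ubiquitous type IV molecule. Col4a1 read 7.36, 7.52 and 7.24 in GFP-high arrays against 5.99, 5.59 and 5.77 in GFP-negative ones, a log2 fold change of 1.59 ± 0.14 (SE; 3.01-fold; adjusted p = 6.78e-05 in limma). Col4a2 read 6.99, 7.03 and 6.85 against 5.59, 5.45 and 5.71 (1.37 ± 0.12, 2.59-fold, adjusted p = 6.07e-05). Both genes were well separated between the groups, and in both GFP-high replicate 3 was the lowest of the GFP-high arrays.

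Col4a3 and Col4a4 encode chains that join alpha 5 in the specialised network of glomerular and alveolar basement membranes and are mutated in Alport syndrome. Col4a3 read 6.60, 6.57 and 6.28 in GFP-high arrays against 4.97, 4.85 and 4.99 in GFP-negative ones (1.55 ± 0.13, 2.92-fold, adjusted p = 4.66e-05 in limma). Col4a4 read 6.32, 6.81 and 6.45 against 5.21, 4.95 and 5.11 (1.44 ± 0.15, 2.71-fold, adjusted p = 0.000165). The GFP-negative values of this pair were tightly grouped, with SDs of 0.08 and 0.13 (n = 3).

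Col4a5, the X-linked chain shared by the alpha 3 and alpha 6 networks, had the highest fold change of the 6. It read 7.03, 7.0 and 6.72 against 4.67, 5.20 and 4.66 (2.07 ± 0.17, 4.20-fold, adjusted p = 4.86e-05 in limma). Its neighbour Col4a6 read 6.70, 6.62 and 6.39 against 5.09, 4.97 and 5.31 (1.45 ± 0.14, 2.73-fold, adjusted p = 9.88e-05). The 95% intervals of the log2 fold change, 1.68 to 2.46 for Col4a5 and 1.10 to 1.64 for Col4a2, the lowest of the 6, do not overlap, whereas those of Col4a5 and the other 4 chains do; the differences between chains were not tested. In 5 of the 6 genes GFP-high replicate 3 was nearest to the GFP-negative mean, the exception being Col4a4.

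**Figure D2:**
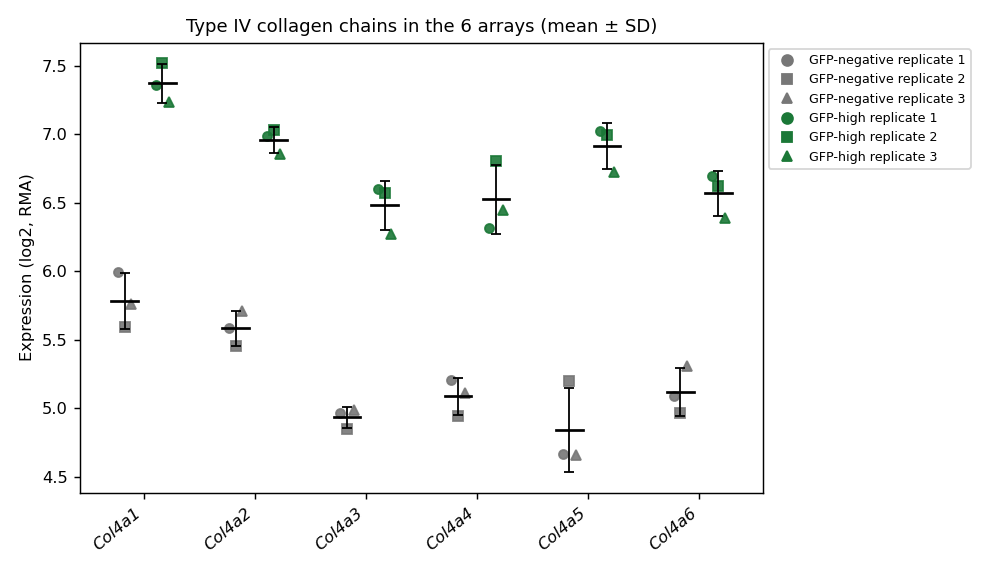
Log2 expression of the 6 type IV collagen chains in each of the 6 arrays, with the mean and SD of each group (n = 3); grey points are GFP-negative and green points GFP-high arrays, and the symbol gives the replicate number. No GFP-high value lies below 6.28 and no GFP-negative value above 5.99, and within each gene the gap between the groups is at least 1.08.

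Other collagens of the basement membrane zone moved in opposite directions. Col15a1, a proteoglycan collagen that links basement membranes to the underlying matrix, read 8.0, 8.35 and 8.44 in GFP-high arrays against 4.71, 5.09 and 5.00 in GFP-negative ones. The rise was 3.33 ± 0.16 in log2 units (10.1-fold, adjusted p = 1.74e-06 in limma), and the 2 groups lay far apart. Col18a1, its closest relative and the precursor of the angiogenesis inhibitor endostatin, went the other way. It read 6.27, 6.23 and 6.04 in GFP-high arrays against 7.68, 7.97 and 7.45 in GFP-negative ones (-1.52 ± 0.15, 2.87-fold lower, adjusted p = 0.000125). Col7a1, which forms the anchoring fibrils of skin, read 5.72 ± 0.05 against 5.68 ± 0.20 (SD, n = 3 each) and did not pass (0.04 ± 0.13, adjusted p = 0.852).

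Of the transmembrane collagens, Col23a1 alone passed. Col23a1, a cell surface collagen whose ectodomain can be shed by furin, read 10.28, 10.14 and 9.66 in GFP-high arrays against 6.56, 6.50 and 6.83 in GFP-negative ones. Its log2 fold change of 3.39 ± 0.18 (10.5-fold, adjusted p = 3.22e-06 in limma) was the largest of the 44, with Col15a1 next. Col17a1, the hemidesmosomal collagen of basal keratinocytes, read 5.46, 5.48 and 5.32 against 5.47, 5.16 and 5.28 (0.12 ± 0.12, adjusted p = 0.541). Col13a1, found at focal contacts and the neuromuscular junction, differed by 0.17 ± 0.11 (adjusted p = 0.283), and Col25a1, a neuronal collagen known from amyloid plaques, by less than 0.01 in size (adjusted p = 0.999). The 95% intervals of these 3 genes ran from -0.28 to 0.41, within which the largest change is 1.33-fold.

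Fibrillar collagens were not called in either direction. Col1a1, the alpha 1 chain of type I collagen, read 6.01, 6.07 and 6.33 in GFP-high arrays against 5.98, 5.55 and 5.50 in GFP-negative ones (0.46 ± 0.16, adjusted p = 0.0631 in limma). Its partner chain Col1a2 read 5.55, 5.33 and 6.08 against 5.29, 5.14 and 5.17 (0.45 ± 0.19, adjusted p = 0.106), and Col3a1, the type III chain of distensible tissues, read 5.89, 5.27 and 6.10 against 5.38, 5.19 and 5.18 (0.50 ± 0.20, adjusted p = 0.101). In all 3 genes GFP-high replicate 3 was the highest array. The GFP-high spread of Col1a2 (SD 0.39) and Col3a1 (SD 0.43) exceeded the GFP-negative spread (SD 0.08 and 0.11; n = 3 each). The remaining 8, including the cartilage collagen Col2a1, the fibril regulators Col5a1, Col5a2 and Col5a3, and Col11a1, Col11a2, Col24a1 and Col27a1, differed by -0.18 to 0.14.

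The 95% intervals of the 11 fibrillar genes reached from -0.60 to 0.97 on the log2 scale, so that a change of up to 1.96-fold lies within them. The calls of the 3 type I and III genes depended on single arrays or on the filter. Without GFP-high replicate 2, Col3a1 passed at 0.746 (adjusted p = 0.00647 in limma; 0.00647 to 0.266 over the alternatives) and so did Col1a2 at 0.614 (adjusted p = 0.0420; 0.0420 to 0.251). Col1a1 passed without GFP-negative replicate 1 (0.611, adjusted p = 0.0204; 0.0204 to 0.177 over the alternatives) and when the lowest 30% of genes were left out (adjusted p = 0.0441). The direction was upward for these 3 genes in all alternatives.

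**Figure D3:**
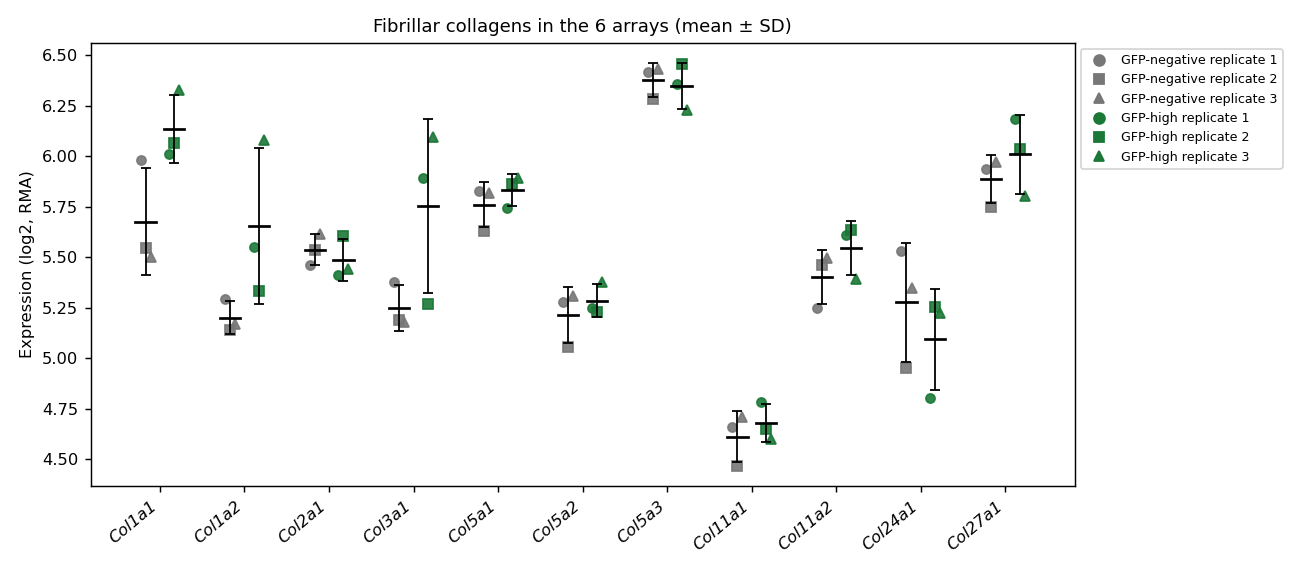
Log2 expression of the 11 fibrillar collagens in each array, with the mean and SD of each group (n = 3); grey points are GFP-negative and green points GFP-high arrays, with the replicate number as the symbol. For Col1a1, Col1a2 and Col3a1 the triangle of GFP-high replicate 3 is the highest point, at 6.33, 6.08 and 6.10.

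Among fibril-associated collagens, which decorate fibril surfaces, Col12a1 rose and 8 of 9 genes did not pass. Col12a1, a large collagen of dense connective tissue, read 5.27, 5.11 and 6.04 in GFP-high arrays against 4.18, 4.34 and 4.21 in GFP-negative ones (1.23 ± 0.22, 2.34-fold, adjusted p = 0.00317 in limma). GFP-high replicate 3 was again the highest, and without it the log2 fold change was 0.94; the call was lost in the fit without moderation (adjusted p = 0.0558; 0.00126 to 0.0558 over the alternatives). Col16a1, also found near fibrils and basement membranes, read 5.74, 5.82 and 5.79 against 5.57, 5.42 and 5.37 (0.33 ± 0.11) and missed the threshold at an adjusted p of 0.0508. It passed with the lowest genes left out (0.0301), with the mean of a gene's rows (0.0499) and without moderation (0.0386). The remaining 7, Col9a1, Col9a2, Col9a3, Col14a1, Col19a1, Col20a1 and Col22a1, ranged from -0.29 to 0.24.

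Type VI collagen forms beaded filaments around cells from an alpha 1, an alpha 2 and a longer chain, usually alpha 3, for which alpha 4, alpha 5 or alpha 6 can stand in. Col6a3 read 6.85, 6.78 and 7.12 in GFP-high arrays against 5.44, 5.31 and 5.56 in GFP-negative ones (1.48 ± 0.13, 2.79-fold, adjusted p = 7.56e-05 in limma). Col6a5, which can take its place, read 5.16, 5.55 and 6.07 against 7.06, 7.16 and 6.87 (-1.44 ± 0.21, 2.71-fold lower, adjusted p = 0.00105). The alternative long chains thus changed in opposite directions, with no overlap between the groups in either. Col6a4 and Col6a6 differed by 0.03 and 0.07 and did not pass.

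Of the shared chains, Col6a2 read 6.35, 6.16 and 6.60 against 5.92, 5.68 and 5.80 and rose by 0.57 ± 0.14 (1.48-fold, adjusted p = 0.0153 in limma). This call was lost when GFP-negative replicate 2 was left out (adjusted p = 0.0535) and without moderation (0.0649; 0.00893 to 0.0649 over the alternatives). Col6a1 differed by 0.35 ± 0.14 and did not pass (adjusted p = 0.0985), although its groups did not overlap (6.47, 6.55 and 6.93 against 6.28, 6.26 and 6.36). For Col6a1, Col6a2 and Col6a3, GFP-high replicate 3 was the highest array.

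Col8a1, a short-chain collagen that forms hexagonal networks in vessel walls and the cornea, had the largest fall. It read 9.02, 8.93 and 9.67 in GFP-high arrays against 11.53, 11.62 and 11.06 in GFP-negative ones (-2.19 ± 0.22, 4.57-fold lower, adjusted p = 0.000138 in limma). The groups were separate, and GFP-high replicate 3 lay nearest to the GFP-negative arrays. Its partner Col8a2 read 5.52, 5.46 and 5.38 against 5.27, 4.92 and 5.34 and did not pass (0.28 ± 0.14, adjusted p = 0.175), and Col10a1, the collagen of hypertrophic cartilage, differed by 0.11 ± 0.12. Col26a1 (0.11) and Col28a1 (0.03), which fall outside these classes, did not pass either.

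**Figure D4:**
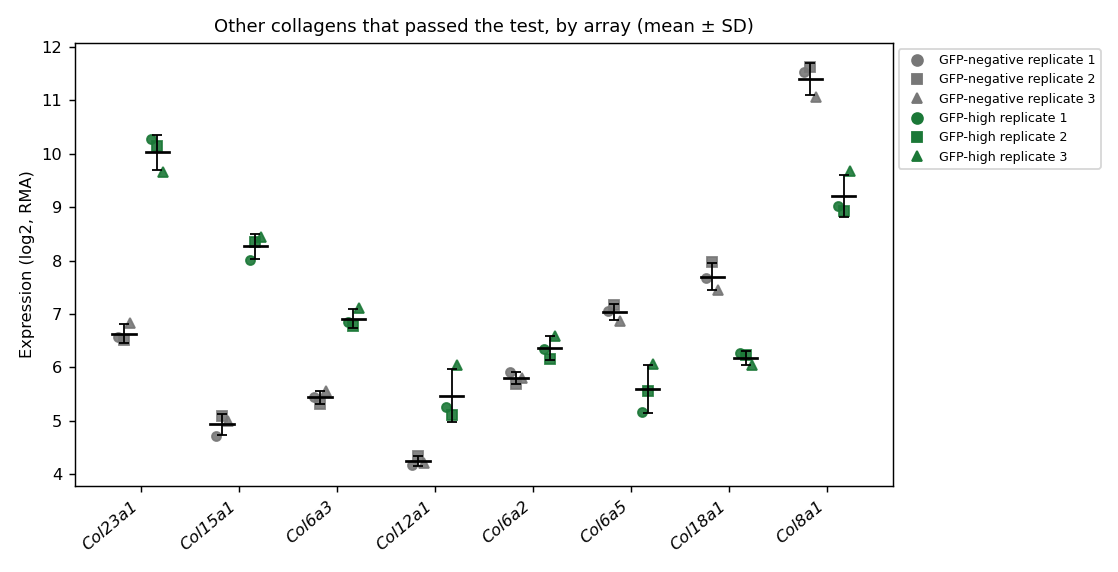
Log2 expression of the 8 collagens outside type IV that passed the test, in each array, ordered by log2 fold change, with the mean and SD of each group (n = 3); grey points are GFP-negative and green points GFP-high arrays, with the replicate number as the symbol. The 5 genes on the left, from Col23a1 to Col6a2, are higher in GFP-high arrays and the 3 on the right, Col6a5, Col18a1 and Col8a1, are lower, and the groups overlap in none of the 8.

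GFP-high replicate 3 was not displaced in the same way for all collagens. Among the 11 genes that rose it was the GFP-high array nearest to the GFP-negative mean in 6, replicate 2 in 3 and replicate 1 in 2; among the 3 that fell it was nearest in 2. Over the type IV chains the median excess of this array over the GFP-negative mean was 1.35, against 1.58 and 1.68 in replicates 1 and 2, and over the 8 neuroendocrine markers the same median was -1.74, against -2.58 and -2.74. Without this array, 11 collagens were still higher and 3 lower, and the type IV median was 1.59.

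The 3 collagens with a second array row passed with neither row. The second row of Col1a2 differed by 0.27 ± 0.18 (SE; adjusted p = 0.329 with every row tested), that of Col5a1 by 0.12 ± 0.13 (0.545) and that of Col6a1 by 0.13 ± 0.16 (0.595), and none of these passed. For Col1a2 the second row again read highest in GFP-high replicate 3 (3.63, against 2.93 and 3.03). Of the 44 genes, 6 (Col6a4, Col10a1, Col11a1, Col14a1, Col19a1 and Col28a1) had a mean in the lowest 30% of genes, and 0 of the 6 passed.

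Genes that make, cross-link, bind and degrade collagen were measured beside the chains. Of 65 measured genes in 7 such lists, 24 (36.9%) were higher and 7 (10.8%) lower, against 13.0% and 17.0% of all genes, with a median log2 fold change of 0.22. Laminins and other basement membrane partners contributed 7 of 14 higher and 1 lower, and collagen receptors 4 of 9 higher and none lower. The other lists were hydroxylation and glycosylation (4 higher and 3 lower of 14), chaperones and secretion (3 and 2 of 8), propeptide processing (1 and 1 of 7), crosslinking (3 and 0 of 6) and collagen degradation (2 and 0 of 7). The share of partner genes that passed, 47.7%, is not a test of these lists.

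Enzymes that modify the chains changed in both directions. P3h2, a prolyl 3-hydroxylase that acts on type IV collagen, read 8.13, 8.18 and 8.25 in GFP-high arrays against 5.43, 5.74 and 5.61 in GFP-negative ones (2.60 ± 0.12, adjusted p = 1.51e-06 in limma). P4ha2, a catalytic subunit of prolyl 4-hydroxylase, rose by 1.93 ± 0.13, while Colgalt2, a collagen galactosyltransferase, fell (-1.96 ± 0.26) and the lysyl hydroxylase Plod1 fell (-0.70 ± 0.21). Serpinh1, the collagen chaperone HSP47, rose by 1.08 ± 0.16, the endoplasmic reticulum channel gene Tmem38b by 1.20 ± 0.18 and the cargo export gene Mia2 by 1.77 ± 0.19, and its relative Mia3, which loads collagen into transport carriers, fell (-0.58 ± 0.10). The remaining genes of these lists that passed were P4ha3 (0.65) and Colgalt1 (0.42), which were higher, and P3h4 (-0.64) and Sec24d (-0.46), which were lower, all 4 named after their values were seen.

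Among the procollagen proteases Tll1 fell (-1.19 ± 0.18) and Bmp1 rose (0.95 ± 0.29, adjusted p = 0.0387 in limma). Bmp1 read 8.73, 8.84 and 8.33 in GFP-high arrays against 7.46, 7.18 and 8.40, so the groups overlapped through GFP-negative replicate 3, and with the replicate number as a block it did not pass (0.0640). GFP-negative replicate 3 also read above the other GFP-negative arrays for the collagen receptor Ddr2 (7.54, against 4.44 and 4.10), Pxdn (7.57, against 6.08 and 4.91) and Mmp2 (7.14, against 5.14 and 4.80), which did not pass and are named after their values were seen. Among crosslinking enzymes, the transglutaminase Tgm2 rose by 1.37 ± 0.17, Loxl1 by 0.95 ± 0.14 and Loxl3 by 0.70 ± 0.21. Leaving out single arrays ended the call of Plod1 (GFP-negative replicates 2 and 3, GFP-high replicates 1 and 2; adjusted p up to 0.115), Bmp1 (GFP-negative 1 and 2, GFP-high 1 and 2; up to 0.123), Loxl3 (each array but GFP-high 2; up to 0.103) and the integrin gene Itga11 (each array but GFP-high 2; up to 0.139). Without moderation the same 4 genes did not pass (0.163 for Plod1, 0.187 for Bmp1, 0.161 for Loxl3 and 0.139 for Itga11), and after quantile normalization Plod1 (0.0578), Loxl3 (0.0511) and Itga11 (0.0629) did not. The calls of the other 19 of the 23 genes chosen by rank were kept in each of 15 refits that tested them; Mia2, among the lowest 30% of genes, was tested in 14.

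Receptors of collagen rose where they changed. Itga2, the integrin subunit that pairs with the beta 1 subunit and binds fibrillar collagen, read 8.08, 7.64 and 7.75 against 4.62, 5.28 and 5.01 (2.85 ± 0.19, adjusted p = 1.23e-05 in limma). Itga1, whose integrin favours type IV collagen, read 7.39, 7.33 and 7.67 against 5.27, 4.88 and 5.01 (2.41 ± 0.15, adjusted p = 7.85e-06), and both integrins were widely separated between the groups. Mrc2, an endocytic collagen receptor, rose by 1.94 ± 0.18 and Itga11 by 0.52 ± 0.16, while the common beta subunit Itgb1 (-0.11 ± 0.14, adjusted p = 0.619) and the kinase receptor Ddr1 (0.16 ± 0.12, adjusted p = 0.387) did not pass; Itgb1 and Ddr1 are named after their values were seen. The membrane protease Mmp14, a collagenase, rose by 1.30 ± 0.12 and the protease Fap by 0.75 ± 0.15. In the basement membrane list the laminin chains Lamb2 (3.49 ± 0.12), Lamb3 (3.00 ± 0.17) and Lama5 (2.79 ± 0.15) and the proteoglycan agrin, Agrn (2.24 ± 0.18), had the largest changes. The laminin chains Lamb1 (1.35), Lamc1 (0.83) and Lama3 (0.80) also rose. Nid1, which bridges laminin and type IV collagen, was the member that fell (-1.03 ± 0.23); it and the last 3 laminins are named after their values were seen.

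**Figure D5:**
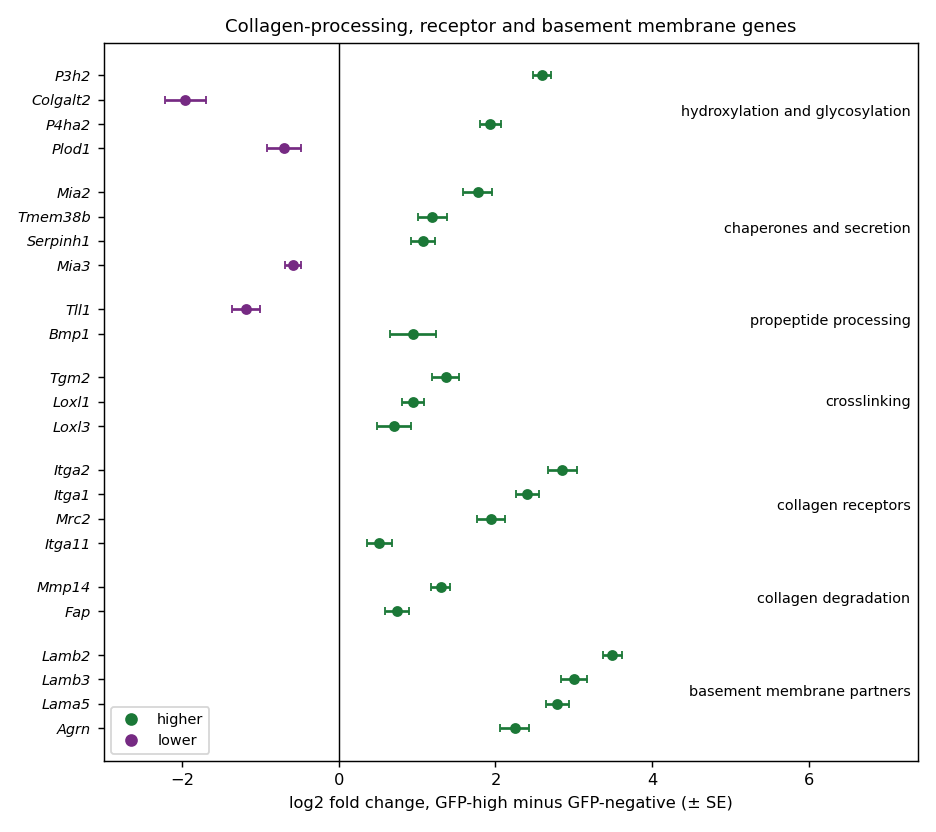
Log2 fold change, GFP-high minus GFP-negative, with its standard error (n = 3 arrays per group), of up to 4 genes per list that passed the test with the largest absolute change; green points are higher and purple points lower. The values run from -1.96 for Colgalt2 to 3.49 for Lamb2.

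Lung epithelial markers were also higher in GFP-high arrays, and their part in the collagen differences was not tested. Over all genes 13.0% were higher and 17.0% lower. All 10 alveolar type 1 markers were higher in GFP-high arrays, with a mean log2 level of 9.01 to 9.33 against 6.94 to 7.05; Ager rose by 4.53 ± 0.12, Pdpn by 2.05 ± 0.13 and Hopx by 1.46 ± 0.22. Of 10 alveolar type 2 markers 9 were higher (9.54 to 9.98 against 5.93 to 6.36), and of 10 club cell markers 9 were higher (11.06 to 11.45 against 7.01 to 7.77); Etv5 and Bpifa1 were the exceptions. Of the type 2 markers Sftpb rose by 4.85 ± 0.30, Sftpc by 3.63 ± 0.34 and Sftpa1 by 2.49 ± 0.41, and of the club cell markers Scgb3a1 rose by 5.11 ± 0.32, Scgb3a2 by 4.06 ± 0.20 and Scgb1a1 by 1.51 ± 0.19. All 8 measured neuroendocrine markers were lower (7.44 to 8.43 against 10.01 to 10.13), among them Chga (-2.29 ± 0.23) and Chgb (-2.38 ± 0.26); Col8a1, Col18a1 and Col6a5 were lower in the same arrays.

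Most stromal markers did not pass, and their part in the collagen values was not tested either. In the fibroblast list and in the smooth muscle list 20% passed, below the 30% of all genes. However, 7 of the 10 fibroblast markers and 2 of the 10 smooth muscle markers had a mean in the lowest 30% of genes. Differences are compressed at such levels, so the share that passed does not measure the stromal content of the groups. Of 10 fibroblast markers 1 was higher (Dpt, 0.38 ± 0.12) and 1 lower (Dcn), with a mean level of 4.85 to 5.09 in GFP-high arrays and 4.89 to 5.09 in GFP-negative arrays. Of their defining genes, Pdgfra read 4.31 to 5.04 against 4.10 to 5.00 and Lum 3.00 to 3.76 against 3.16 to 3.29. Dcn, which also coats collagen fibrils, fell by 1.47 ± 0.38 on the log2 scale. Of the 10 fibroblast markers, GFP-high replicate 3 was the highest GFP-high array for Pdgfra, Dcn, Lum and Mfap5, as it was for Col1a1, Col1a2 and Col3a1, and the lowest for Tcf21, Mfap4 and Inmt; Mfap5, Tcf21, Mfap4 and Inmt are named after their values were seen.

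Smooth muscle and pericyte markers were 1 higher and 1 lower of 10 (5.06 to 5.37 against 5.03 to 5.32), with Acta2 (0.36 ± 0.12, adjusted p = 0.0494 in limma) the higher one, Des (-1.09 ± 0.35) the lower one, with overlapping groups and GFP-negative replicate 3 highest (7.06), and Myh11 and Cnn1 not passing. Endothelial markers were 2 higher and 1 lower of 10 (5.58 to 5.64 against 5.32 to 5.35); Pecam1 read 5.31 to 5.41 against 5.35 to 5.46 and Cdh5 did not pass, while Kdr rose by 3.87 ± 0.13, Esam rose by 0.60 ± 0.14 and Vwf fell (-2.07 ± 0.23). Of 10 leukocyte markers Coro1a was lower and 9, Ptprc and Laptm5 among them, did not pass (5.44 to 5.83 against 5.70 to 5.92). Mesothelial markers were higher for 4 of 6 (5.39 to 5.59 against 4.88 to 4.95), namely Msln (0.64 ± 0.16), Upk3b (0.85 ± 0.19), Upk1b (0.87 ± 0.20) and Lrrn4 (0.66 ± 0.11). The shares that passed were 30% of endothelial, 10% of leukocyte and 66.7% of mesothelial markers, against 30% of all genes.

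Cartilage markers were higher for 2 of 8, Epyc (0.39 ± 0.12) and Chad. Chad, a collagen-binding leucine-rich protein, read 12.16, 12.11 and 12.30 in GFP-high arrays against 6.41, 7.14 and 6.56. The defining cartilage genes Acan (0.26 ± 0.13), Matn1 and Matn3 did not pass, and neither did Col2a1. Of the 8 cartilage markers 6, Epyc, Acan, Matn1 and Matn3 among them, had a mean in the lowest 30% of genes, where differences are compressed. Airway basal markers were 1 higher and 1 lower of 5, with Krt15 higher (0.87 ± 0.22), Dlk2 lower (-0.47 ± 0.14) and Krt14, like Col17a1, not passing. Of 4 measured Schwann cell markers, Sox10 among them, 0 passed in limma, and 0 were at an unadjusted p under 0.05. The mean was also in the lowest 30% of genes for 3 of the 5 airway basal and 2 of the 4 Schwann cell markers. The shares that passed were 25% of cartilage, 40% of airway basal and 0% of Schwann cell markers, against 30% of all genes. Among the markers, Dpt, Des, Esam, Vwf, Lrrn4, Epyc, Chad, Dlk2, Etv5 and Bpifa1 are named after their values were seen.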

How the data were processed

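Log2 expression was measured in 6 samples, 3 GFP-high and 3 GFP-negative. The authors deposited log2 values made with RMA, per the submitters' processing notes. RMA corrects background, brings arrays to a common distribution and combines the probes of a set, which compresses differences at low levels. Which version was run: not given in the sources used here. Among 41344 rows, the platform annotation names 1 gene for 23520, several for 1814 and none for 16010, and rows of the last kinds were not used. The highest-mean row of each gene gave 22179 genes, with no filter on low values.

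All genes were fitted with limma 3.58.1 (lmFit and eBayes, no block; R 4.3.3), with GFP-negative subtracted from GFP-high. Two-sided p-values were adjusted (Benjamini-Hochberg) across the 22179 genes, and a gene passed at an adjusted p under 0.05. Intervals are 95% and use the moderated degrees of freedom. The script was tested on simulated data. Gene classes and lists came from textbook knowledge. The members and lists were chosen with earlier results of these data known. Named genes are every collagen, and up to 4 passing genes per partner list with the largest absolute change, and those measured among the first 3 markers of each list. Listed genes without a row naming them alone (6 of 71 partner genes) were not analysed here. Alternatives were median centring, quantile normalization, a filter on the lowest 30% of genes, other uses of several rows, trend and robust settings, array weights, no moderation, a replicate block, a minimum log2 fold change of 1 and leaving out each array. No permutation p is given, since the smallest that 3 and 3 samples allow is 0.1.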

Additional observations from a re-analysis of the deposited data

How the results depend on the processing

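The count of collagens higher in GFP-high cells was 10 to 13 and that of collagens lower was 3 under every alternative run, leaving out each array included, against 11 and 3. The type IV median stayed between 1.43 and 1.59 and was 1.45 with types VII, XV and XVIII added; the fibrillar median ranged from 0.01 to 0.12 without single arrays. The transmembrane median, 0.14, rests on 4 genes. It moved beyond its small replicate spread to 0.10 after quantile normalization and to 0.12 with array weights. Without single arrays it ranged from 0.089 to 0.204. It stayed within that spread without GFP-negative replicate 3 (0.132), GFP-high replicate 1 (0.128) or GFP-high replicate 2 (0.133), and moved beyond it without each other array. The cause of these moves was not tested. All genes called numbered 6661, 5408 to 6116 without single arrays, and 2584 with a minimum absolute log2 fold change of 1, which by construction calls fewer. Of the 14 collagens that passed, 12 passed in all 15 refits, the exceptions being Col6a2 and Col12a1; Col6a2 is also below the minimum fold change. Same-numbered arrays were not shown to be pairs: their deviations from the group means correlated at 0.114, -0.0256 and -0.00159, and across the groups only the replicate 1 arrays correlated best with their own number. With the replicate number as a block 6172 genes, and again 11 higher and 3 lower collagens, were called. Signal over background was not analysed here, and the number of arrays limits the precision of small differences.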
